A study of Homo sapiens with 8 samples.

Results

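The genes described here encode factors that make ribosomes in the nucleolus: the RNA polymerase I machinery, the small nucleolar ribonucleoproteins (snoRNPs) that modify rRNA, abundant nucleolar proteins, and the assembly factors of the small and the large ribosomal subunit. They were chosen by symbol from a list of 50, of which 49 were found among the 23228 genes of the deposited count tables. All 49 passed the filter on low counts and were among the 13694 genes tested. NOP9 was not found under that symbol. The tables list C14orf21, a synonym of NOP9 in RefSeq, at 23.1 and 25.8 normalized CPM (counts scaled to the library size) with vehicle, 13.8 and 25.8 with EC359, 42.3 and 48.1 with vorinostat and 41.3 and 35.5 with the combination, and it was not counted among the 49.

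RNA-seq was performed on BT-549, an established human triple negative breast cancer cell line, after 24 h of treatment. The 4 groups received vehicle (DMSO), 100 nM EC359, a small molecule inhibitor of the leukemia inhibitory factor receptor LIFR, 10 µM vorinostat, an inhibitor of histone deacetylases (HDACi), or EC359 and vorinostat together at these doses (combination). Each group had 2 libraries, all from the same cell line. The comparisons with vehicle ask what each treatment changed, and those with the combination ask what either drug added to the other.

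Each library held between 19069450 and 24759041 counts on genes, 85.1% to 88.1% of the uniquely aligned reads. Alignments to more than 1 place, which were not counted on genes, made up 29.1% to 31.8% of all that was tallied. Whether a read with several alignments entered this tally once or more often is not given in the sources used here. The mesenchymal gene VIM was at 2056 CPM or more in every library. The epithelial gene CDH1 was at 2.21 or less and EPCAM at 4.27 or less. The receptor gene ESR1 was at 1.02 CPM or less, while ERBB2 reached 102. The leukocyte gene PTPRC was at 0.708 CPM or less and the erythroid gene HBB at 0.140 or less. These are examples from longer marker lists. The epithelial markers KRT8, KRT18 and KRT19 also passed the filter on low counts. So did CD68 and ALB, markers of other cell types. The levels of these genes are not given here. The labels do not say whether the libraries of a group came from separate cultures. The study's methods state in general that in vitro experiments had biological replicates, without naming the RNA-seq libraries. The p-values below measure the spread between these libraries, part of which may be technical. The EC359 libraries differed most from each other. The median absolute difference between the libraries of a group over the 49 genes was 0.289 (log2) for EC359, 0.0673 for vehicle, 0.0603 for vorinostat and 0.116 for the combination. In the EC359 group 12 of the 49 genes differed by more than 0.5 (log2). Across the 49 genes this difference, library 1 over library 2, went down with the GC content of the transcript (Pearson r = -0.45, Spearman rho = -0.42, across genes, which are not replicates). With offsets for GC content and transcript length, the comparison of EC359 with vehicle described below gave 7 genes higher, 0 lower and a median of 0.36.

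Ribosome production starts in the nucleolus, where RNA polymerase I, recruited by the upstream binding factor UBTF and the promoter factor SL1, transcribes the rDNA repeats into a long precursor. Box C/D and box H/ACA snoRNPs methylate and pseudouridylate this precursor while a large complex, the small subunit processome, folds and cleaves it, and separate assembly factors build the large subunit. Many genes of this pathway are activated by the transcription factor MYC, which binds the E-box sequence CACGTG.

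Because the list was drawn up as mostly MYC targets, the promoters were searched for CACGTG. A promoter here is the window from 250 bases before to 50 bases after the start of a gene in RefSeq on GRCh38.p14, CACGTG reads the same on both strands, and 43 of the 49 genes had an entry. The motif was present in 15 of these 43 promoters (34.9%), against 7.43% of all 27305 promoters in the table and 9.95% of the 9413 promoters of tested genes. This is a description of letters in a window and not of binding, and the list was not chosen independently of MYC. In 11 of the 15 promoters the motif lay after the annotated start, in 3 before it, and in RRP9 it spanned it. The sites of the 8 genes among them whose values are given per library below are shown 5′ to 3′ on the strand of the gene, with the motif in capitals and up to 12 flanking bases on each side.
MRTO4, chr1:19251807-19251836, plus strand: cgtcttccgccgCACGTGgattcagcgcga
GNL2, chr1:37595917-37595946, minus strand: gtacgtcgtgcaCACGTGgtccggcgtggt
WDR43, chr2:28894658-28894687, plus strand: cgcacggacgaaCACGTGgctgcagcgggg
RRP9, chr3:51941892-51941921, minus strand: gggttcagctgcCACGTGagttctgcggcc
NOP14, chr4:2963374-2963403, minus strand: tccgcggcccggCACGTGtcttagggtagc
NOP2, chr12:6568242-6568268, minus strand: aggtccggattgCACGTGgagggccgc
UTP20, chr12:101280083-101280112, plus strand: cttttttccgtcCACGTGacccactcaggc
FBL, chr19:39846356-39846385, minus strand: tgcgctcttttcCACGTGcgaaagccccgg

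These 8 genes share the hexamer and differ in their flanks. The other promoters with the motif were those of EBNA1BP2, PNO1, BYSL, NOL6, NOC3L, NAT10 and PES1.

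Per transcript length, the members spanned a wide range of levels. In the vehicle libraries the median over the 49 genes was 29.2 RPKM (reads per transcript length and library size, computed from the counts and the GENCODE transcript length). Nucleolin (NCL), an abundant RNA binding protein of the nucleolus, was highest at 376 RPKM, followed by nucleophosmin (NPM1) at 298, EBNA1BP2 at 206, FBL at 192 and NOP56 at 148. BOP1, a large subunit factor, was lowest at 4.08 and PPAN next at 4.19. PPAN had as few as 86 counts in a library and the largest standard errors of the 49 genes, and it shares exons with the readthrough gene PPAN-P2RY11, so its values are uncertain.

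Together the 49 genes took 0.732% and 0.713% of the gene counts in the vehicle libraries, 0.983% and 0.861% with EC359, 0.577% and 0.583% with vorinostat, and 0.628% and 0.646% with the combination. The EC359 libraries were thus highest and the vorinostat libraries lowest, and no group overlapped another on this share. In bulk RNA, fewer cells that express a gene and less of its RNA per cell cannot be told apart.

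The tests below are edgeR's quasi-likelihood tests, adjusted over all 13694 genes after Benjamini and Hochberg. A gene was called higher or lower where the adjusted p was below 0.01, and the words rose and fell are kept for such genes. Log2 fold changes are given with their standard error (SE) and n = 2 libraries a group. The 3 comparisons with vehicle share the vehicle libraries.

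With EC359 alone, 6 of the 49 genes rose (12.2%) and 0 fell, against 3.81% of all tested genes higher and 4.01% lower. The 6 were DDX21, WDR43, RRP12, NOP2, NOP16 and RRP1B, and none changed by more than 1 on the log2 scale, a limit that 1.94% of all tested genes passed upwards and 1.72% downwards. The median log2 fold change was 0.33 over the 49 genes and -0.02 over all tested genes, and 44 of the 49 values were positive. In 33 of the 49 genes (67.3%) both EC359 libraries lay above both vehicle libraries, against 24.6% of all tested genes, and in 1 (UBTF) both lay below, against 28.8%. The number called changed with the library left out, among the 49 genes as among all tested genes. The median over the 49 genes stayed between 0.31 and 0.40. None of the 6 calls held under all 15 alternatives that give a test.

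With vorinostat alone, 21 of the 49 genes fell (42.9%) and 4 rose (8.16%), against 25.9% of all tested genes lower and 26.2% higher. The genes that fell came from every role: UBTF, TAF1D and POLR1A of the RNA polymerase I machinery, the snoRNP genes NOP56, DKC1 and GAR1, the abundant proteins NCL, NPM1 and DDX21, 7 of 16 small subunit genes and 5 of 15 large subunit genes. The genes that rose were NOC2L, WDR75, DDX10 and RRP1B. By more than 1 on the log2 scale, 7 fell and 1 rose, against 13.3% and 16.8% of all tested genes. Both vorinostat libraries lay below both vehicle libraries in 30 of the 49 genes and above in 15, against 43.6% and 45.3% of all tested genes. The median was -0.30 over the 49 genes and 0.03 over all tested genes. On leaving out single libraries both counts changed, as did those of all tested genes, and the median over the 49 genes stayed between -0.33 and -0.28. UBTF, TAF1D, NOP56, DKC1, NPM1, UTP20, TSR1, NOP16, NOC2L, MRTO4 and WDR74 kept their call under all 15 alternatives.

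With the combination, 12 of the 49 genes rose (24.5%) and 13 fell (26.5%), against 29.7% of all tested genes higher and 26.7% lower. The share that fell was thus near that of all genes. The median was -0.04 over the 49 genes and 0.07 over all tested genes, and the former ranged from -0.16 without combination library 2 to -0.049 without EC359 library 2 (-0.11 without vehicle library 2, -0.12 with total counts). The genes that rose were POLR1B, RRN3, LYAR, RRP9, WDR75, DDX10, RRP12, PNO1, RRP1B, GNL2, NOC2L and NOC3L, and those that fell were POLR1A, UBTF, NOP56, DKC1, NHP2, NOP14, UTP20, NOL11, HEATR1, NOB1, TSR1, MRTO4 and WDR74. By more than 1 on the log2 scale, 3 rose and 2 fell, against 19.5% and 15.3% of all tested genes. The combination libraries lay apart from vehicle in 21 genes upwards and 25 downwards, against 45.3% and 41.3%. Both counts of called members changed with the library left out, and so did those of all tested genes. Of the 25 calls, 11 held under all 15 alternatives.

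**Figure D1:**
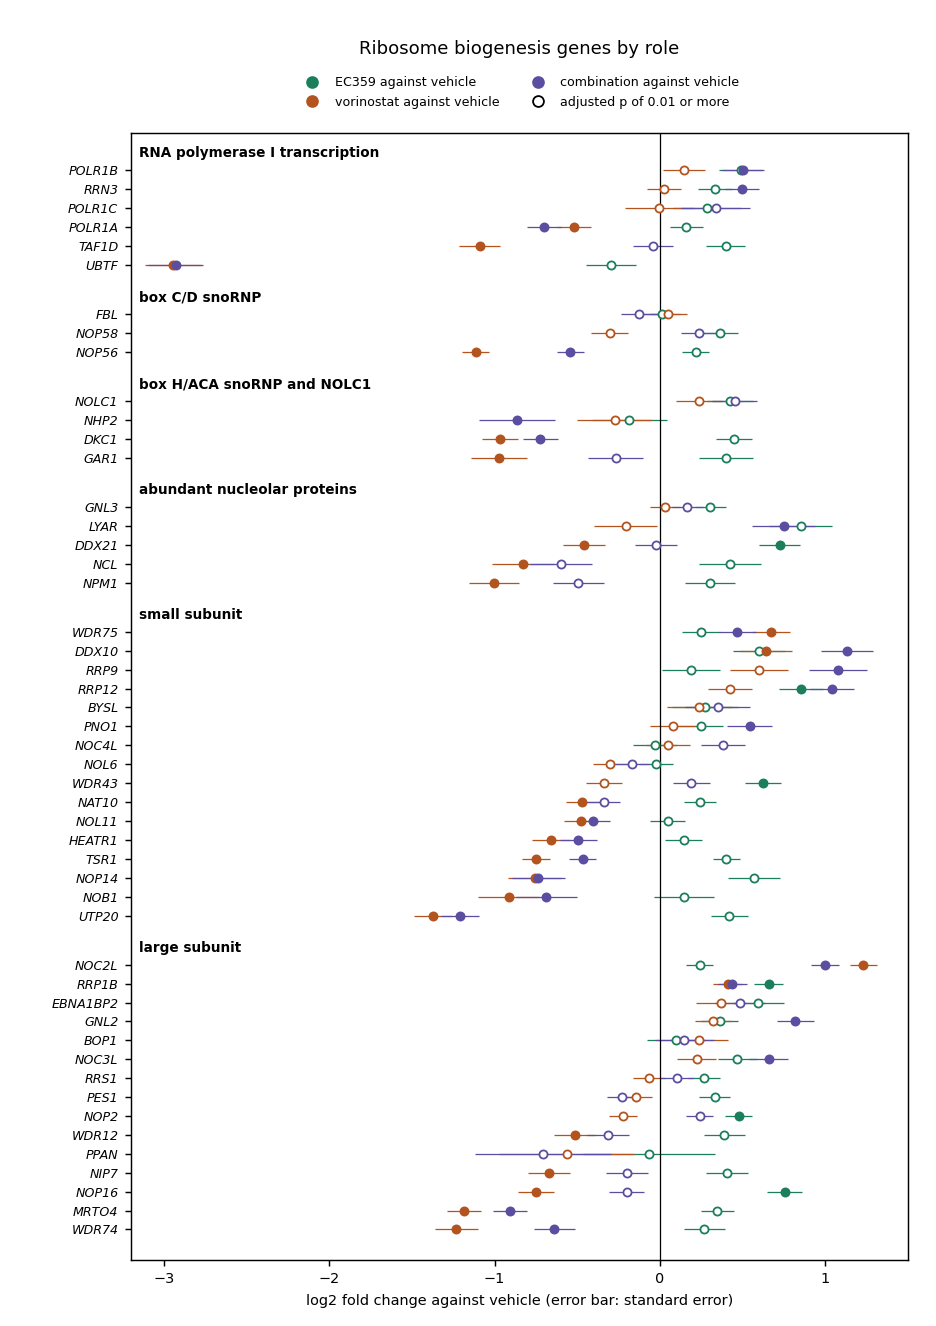
Log2 fold change against vehicle (x axis) of the 49 genes (y axis, grouped by role and sorted by the vorinostat value), with standard errors and 2 libraries a group. Filled points had an adjusted p under 0.01. The EC359 points (green) lie right of 0 for 44 genes, and UBTF lies far to the left with vorinostat (-2.95) and the combination (-2.93).

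Among the 6 RNA polymerase I genes, UBTF (ENSG00000108312, GRCh37 chr17:42282401-42298994, minus strand) had the largest change of all 49 genes. UBTF, the factor that keeps rDNA repeats open for transcription, was at 268 and 240 normalized CPM in the vehicle libraries, 236 and 178 with EC359, 36.0 and 30.0 with vorinostat and 30.3 and 36.3 with the combination. All 4 libraries with vorinostat lay below the 4 without it. UBTF fell with vorinostat (log2 fold change -2.95 ± 0.17 SE, adjusted p = 1.1e-06), with the combination (-2.93 ± 0.17, adjusted p = 7.5e-07) and in the combination against EC359 (-2.63 ± 0.17, adjusted p = 1.5e-06). Adding EC359 to vorinostat gave 0.02 ± 0.16 (adjusted p = 0.95). Some UBTF exons overlap ATXN7L3-AS1 on the opposite strand, and the strand setting of the counting was not given in the sources used here.

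TAF1D, a subunit of SL1, was at 31.6 and 29.2 CPM with vehicle, 40.4 and 39.7 with EC359, 14.4 and 14.2 with vorinostat and 27.3 and 31.7 with the combination. Vorinostat alone gave the lowest values, and the combination libraries overlapped those of vehicle. TAF1D fell with vorinostat (-1.09 ± 0.12, adjusted p = 5.7e-05) and rose when EC359 was added to vorinostat (1.05 ± 0.12, adjusted p = 0.00050), the largest rise of the 49 genes in that comparison. Against vehicle the combination gave -0.04 ± 0.12 (adjusted p = 0.77).

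POLR1A, the largest subunit of RNA polymerase I, was at 76.6 and 77.8 CPM with vehicle, 88.8 and 83.7 with EC359, 51.5 and 56.1 with vorinostat and 44.8 and 50.0 with the combination. It fell with vorinostat (-0.52 ± 0.10, adjusted p = 0.0015) and the combination (-0.70 ± 0.10, adjusted p = 0.00022). POLR1B is its partner in the catalytic core. It had 61.3 and 66.4 CPM with vehicle, 78.6 and 100.5 with EC359, 68.0 and 73.1 with vorinostat and 94.8 and 86.2 with the combination. POLR1B rose with the combination (0.50 ± 0.13, adjusted p = 0.0068), and with vorinostat alone its value was 0.14 ± 0.13 (adjusted p = 0.35). The call with the combination was lost with total counts and with offsets for GC content and transcript length.

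RRN3, which links the polymerase to SL1, was at 59.6 and 62.1 CPM with vehicle, 74.3 and 79.0 with EC359, 59.5 and 64.4 with vorinostat and 91.0 and 80.4 with the combination. The combination libraries were the highest. RRN3 rose with the combination against vehicle (0.49 ± 0.10, adjusted p = 0.0021) and against vorinostat (0.47 ± 0.10, adjusted p = 0.0097). It has 3 named pseudogenes, and reads that align to several of these copies were not counted. POLR1C, shared with RNA polymerase III, passed the test in no comparison.

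The box C/D proteins differed among themselves. NOP56, a scaffold of the box C/D snoRNP, was at 282 and 285 CPM with vehicle, 320 and 338 with EC359, 129 and 132 with vorinostat and 192 and 197 with the combination. The 4 groups of NOP56 values did not overlap, and vorinostat alone was lowest. NOP56 fell with vorinostat (-1.12 ± 0.08, adjusted p = 4.1e-06) and the combination (-0.54 ± 0.08, adjusted p = 0.00027) and rose when EC359 was added to vorinostat (0.57 ± 0.08, adjusted p = 0.0012).

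FBL, the methyltransferase of the same particle, was at 216 and 215 CPM with vehicle, 193 and 242 with EC359, 228 and 219 with vorinostat and 195 and 201 with the combination. Against vehicle its log2 fold change was 0.01 ± 0.11 with EC359, 0.05 ± 0.11 with vorinostat alone and -0.12 ± 0.11 in the combination, and it passed in none of the 5 comparisons. NOP58, the partner of NOP56, rose when EC359 was added to vorinostat (0.54 ± 0.11, adjusted p = 0.0069), while against vehicle vorinostat alone gave -0.31 ± 0.11 (adjusted p = 0.034).

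Of the box H/ACA genes, DKC1, the pseudouridine synthase, was at 222 and 229 CPM with vehicle, 339 and 276 with EC359, 119 and 112 with vorinostat and 140 and 134 with the combination. All libraries with vorinostat were below all without. DKC1 fell with vorinostat (-0.97 ± 0.11, adjusted p = 5.5e-05) and the combination (-0.72 ± 0.11, adjusted p = 0.00029). GAR1, a structural protein of the particle, fell with vorinostat by the same size (-0.97 ± 0.17, adjusted p = 0.00083), and in the combination its value was -0.27 ± 0.17 (adjusted p = 0.18). NHP2, another structural protein, fell with the combination (-0.87 ± 0.23, adjusted p = 0.0081), and vorinostat alone gave -0.28 ± 0.23 (adjusted p = 0.31). NOLC1, a chaperone of snoRNPs, passed in no comparison, and its closest value was 0.45 ± 0.14 with the combination (adjusted p = 0.017).

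**Figure D2:**
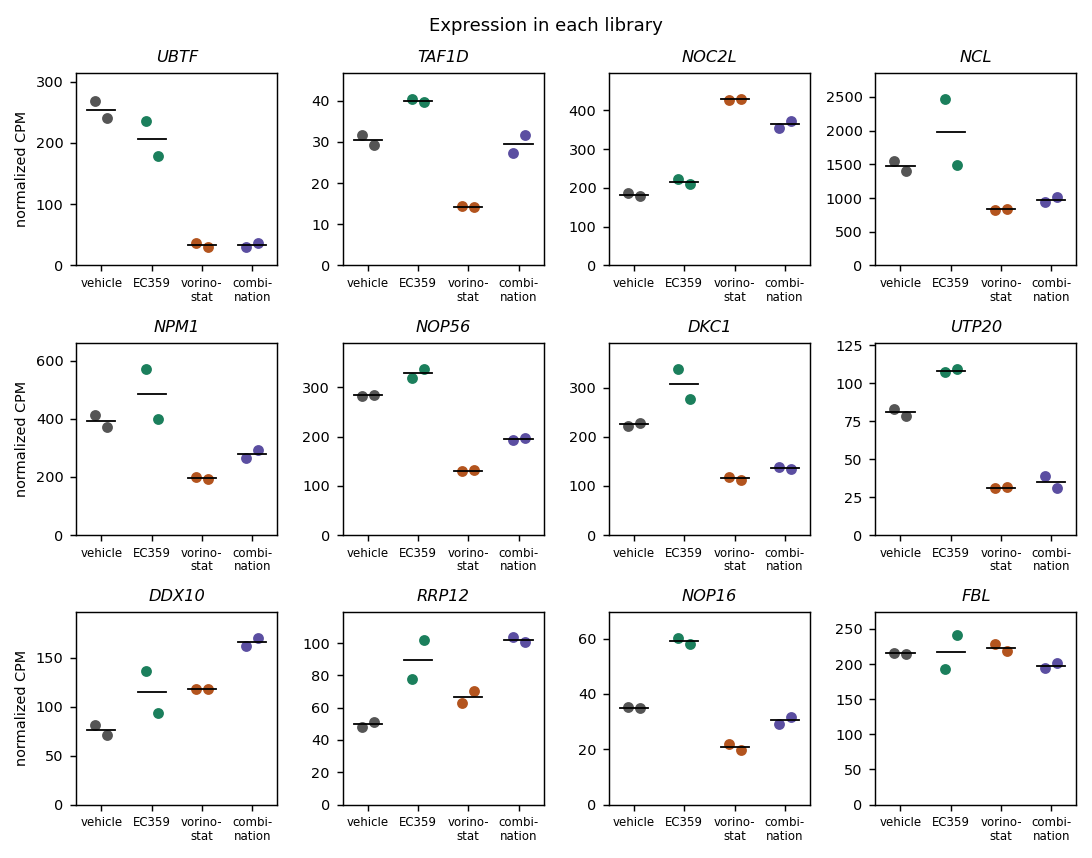
Normalized CPM (y axis, linear, from 0) of 12 genes in each of the 8 libraries (points) and the group mean (line). UBTF, UTP20 and DKC1 are low in the 4 libraries with vorinostat, NOC2L is high in them, and the EC359 libraries of NCL and NPM1 lie far apart.

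NCL, the most abundant of the 49 genes, was at 1549 and 1403 CPM with vehicle, 2464 and 1496 with EC359, 821 and 842 with vorinostat and 935 and 1014 with the combination. EC359 library 1 stood alone at the top, and both vorinostat groups were below vehicle. NCL fell with vorinostat (-0.83 ± 0.19, adjusted p = 0.0039), and its values with the combination (-0.60 ± 0.19, adjusted p = 0.018) and EC359 (0.42 ± 0.19, adjusted p = 0.16) did not pass. NPM1, a histone and ribosome chaperone, was at 414 and 373 CPM with vehicle, 572 and 400 with EC359, 200.1 and 192 with vorinostat and 265 and 294 with the combination. EC359 library 2 lay between the vehicle libraries. NPM1 fell with vorinostat (-1.004 ± 0.15, adjusted p = 0.00038), and the combination gave -0.49 ± 0.15 (adjusted p = 0.017). The annotation holds 49 pseudogenes named after NPM1, so reads shared with these copies are missing from its counts.

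DDX21, an RNA helicase of the nucleolus, was at 372 and 364 CPM with vehicle, 696 and 520 with EC359, 266 and 269 with vorinostat and 363 and 361 with the combination. The EC359 libraries were highest, vorinostat lowest and the combination just under vehicle. DDX21 rose with EC359 (0.73 ± 0.12, adjusted p = 0.0046) and fell with vorinostat (-0.46 ± 0.12, adjusted p = 0.0097). The combination gave -0.02 ± 0.12 against vehicle (adjusted p = 0.87). LYAR, a zinc finger protein of the nucleolus, was at 33.1 and 33.3 CPM with vehicle, 73.8 and 45.8 with EC359, 29.1 and 28.4 with vorinostat and 55.9 and 55.6 with the combination. LYAR rose with the combination against vehicle (0.75 ± 0.19, adjusted p = 0.0063) and against vorinostat (0.95 ± 0.19, adjusted p = 0.0066), and with EC359 alone it reached 0.85 ± 0.19 without passing (adjusted p = 0.016). GNL3 (nucleostemin), a GTPase, passed in no comparison.

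The small subunit genes were called in both directions. With vorinostat (26.2% of all tested genes higher, 25.9% lower), 7 of 16 fell (UTP20, NOB1, NOP14, TSR1, HEATR1, NOL11 and NAT10) and WDR75 and DDX10 rose, and with the combination 6 fell and 5 rose, against 26.7% and 29.7% of all tested genes. UTP20, a large scaffold of the processome, was at 83.2 and 78.5 CPM with vehicle, 107 and 109 with EC359, 31.2 and 31.3 with vorinostat and 38.6 and 31.3 with the combination. Its EC359 libraries were above vehicle and all libraries with vorinostat below. UTP20 fell with vorinostat (-1.37 ± 0.12, adjusted p = 9.3e-06), the combination (-1.21 ± 0.12, adjusted p = 1.6e-05) and the combination against EC359 (-1.63 ± 0.12, adjusted p = 2.9e-06). NOP14, another processome protein, was at 65.7 and 59.1 CPM with vehicle, 109 and 76.0 with EC359, 38.1 and 35.7 with vorinostat and 35.9 and 39.0 with the combination. NOP14 fell with vorinostat (-0.76 ± 0.16, adjusted p = 0.0026) and, against EC359, with the combination (-1.30 ± 0.16, adjusted p = 9.0e-05).

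DDX10, an RNA helicase, was at 80.8 and 71.0 CPM with vehicle, 136 and 93.7 with EC359, 118 and 118 with vorinostat and 162 and 170 with the combination. Every treated library was above both vehicle libraries. DDX10 rose with vorinostat (0.64 ± 0.16, adjusted p = 0.0062) and with the combination (1.13 ± 0.16, adjusted p = 0.00020), and the combination against vorinostat gave 0.49 ± 0.16 (adjusted p = 0.045). EC359 alone gave 0.60 ± 0.16 (adjusted p = 0.033). WDR75, a processome subunit, was at 99.2 and 106 CPM with vehicle, 135 and 108 with EC359, 164 and 163 with vorinostat and 138 and 146 with the combination. WDR75 rose with vorinostat (0.67 ± 0.11, adjusted p = 0.00071) and the combination (0.47 ± 0.11, adjusted p = 0.0051).

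RRP9, the protein that joins the processome with the U3 snoRNA, was at 42.8 and 45.7 CPM with vehicle, 39.5 and 61.6 with EC359, 66.7 and 67.5 with vorinostat and 91.5 and 95.2 with the combination. The combination libraries were highest, and the EC359 libraries lay on either side of vehicle. RRP9 rose with the combination (1.08 ± 0.18, adjusted p = 0.00051), also against EC359 (0.89 ± 0.18, adjusted p = 0.0016). RRP12, which helps to export pre-ribosomes, was at 48.0 and 51.2 CPM with vehicle, 78.0 and 102 with EC359, 63.0 and 70.2 with vorinostat and 104 and 100.6 with the combination. All treated libraries were above vehicle. RRP12 had the largest rise of the 49 genes with EC359 (0.86 ± 0.13, adjusted p = 0.0027), and it rose with the combination against vehicle (1.04 ± 0.13, adjusted p = 0.00010) and against vorinostat (0.62 ± 0.13, adjusted p = 0.0089). WDR43, a processome protein, was at 96.0 and 91.0 CPM with vehicle, 158 and 130 with EC359, 72.4 and 75.5 with vorinostat and 104 and 110 with the combination. WDR43 rose with EC359 (0.62 ± 0.11, adjusted p = 0.0054) and when EC359 was added to vorinostat (0.53 ± 0.11, adjusted p = 0.0084).

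Among the 15 large subunit genes, NOC2L, an assembly factor also known as an inhibitor of histone acetyltransferases, had the largest rise with vorinostat. NOC2L (ENSG00000188976, GRCh37 chr1:879583-894689, minus strand) was at 187 and 178 CPM with vehicle, 222 and 209 with EC359, 427 and 430 with vorinostat and 356 and 374 with the combination. All 4 libraries with vorinostat were above the others, and the combination was below vorinostat alone. NOC2L rose with vorinostat (1.23 ± 0.08, adjusted p = 2.6e-06), the combination (1.00 ± 0.08, adjusted p = 6.5e-06) and the combination against EC359 (0.76 ± 0.08, adjusted p = 3.9e-05). The combination against vorinostat gave -0.23 ± 0.08 (adjusted p = 0.061). Exons of NOC2L overlap SAMD11 on the opposite strand by 372 bases.

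MRTO4, a placeholder for a stalk protein of the large subunit, was at 69.0 and 72.5 CPM with vehicle, 86.7 and 93.2 with EC359, 30.8 and 31.3 with vorinostat and 35.3 and 40.1 with the combination. MRTO4 fell with vorinostat (-1.19 ± 0.10, adjusted p = 1.2e-05) and the combination (-0.91 ± 0.10, adjusted p = 4.9e-05). WDR74, a partner of a remodelling ATPase, was at 43.9 and 47.8 CPM with vehicle, 49.6 and 61.0 with EC359, 20.1 and 19.003 with vorinostat and 29.7 and 29.2 with the combination. For both genes the EC359 libraries were above vehicle and all libraries with vorinostat below. WDR74 fell with vorinostat (-1.23 ± 0.13, adjusted p = 3.5e-05) and rose when EC359 was added to vorinostat (0.59 ± 0.13, adjusted p = 0.0097). It overlaps the spliceosomal RNA gene RNU2-2P on the same strand, which the count tables do not list, so WDR74 values may include its reads.

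NOP16, a large subunit factor, was at 35.2 and 34.8 CPM with vehicle, 60.1 and 58.2 with EC359, 21.8 and 19.8 with vorinostat and 29.2 and 31.7 with the combination. The 4 groups did not overlap. NOP16 rose with EC359 (0.76 ± 0.11, adjusted p = 0.0015), fell with vorinostat (-0.75 ± 0.11, adjusted p = 0.00026) and rose when EC359 was added to vorinostat (0.55 ± 0.11, adjusted p = 0.0065). NOP2, an rRNA methyltransferase, was at 148 and 143 CPM with vehicle, 207 and 197 with EC359, 124 and 125 with vorinostat and 168 and 175 with the combination. It had the smallest of the 6 rises with EC359 (0.48 ± 0.08, adjusted p = 0.0050) and rose by a like size when EC359 was added to vorinostat (0.46 ± 0.08, adjusted p = 0.0041).

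RRP1B was at 131 and 130.4 CPM with vehicle, 217 and 195 with EC359, 175 and 172 with vorinostat and 181 and 173 with the combination. RRP1B rose in each comparison with vehicle, by 0.66 ± 0.09 with EC359 (adjusted p = 0.0012), 0.41 ± 0.09 with vorinostat (adjusted p = 0.0028) and 0.44 ± 0.09 with the combination (adjusted p = 0.0018). GNL2, a GTPase of the large subunit pathway, was at 64.3 and 61.9 CPM with vehicle, 85.7 and 76.5 with EC359, 74.2 and 83.5 with vorinostat and 119 and 104 with the combination. GNL2 rose with the combination against vehicle (0.82 ± 0.11, adjusted p = 0.00016) and against EC359 (0.46 ± 0.11, adjusted p = 0.0051). The PES1, BOP1 and WDR12 proteins form a complex, and their genes differed: with vorinostat WDR12 fell (-0.52 ± 0.13, adjusted p = 0.0055), PES1 gave -0.14 ± 0.09 (adjusted p = 0.20) and BOP1 0.24 ± 0.17 (adjusted p = 0.26).

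When EC359 was added to vorinostat, 10 of the 49 genes rose (20.4%) and 0 fell, against 8.45% of all tested genes higher and 5.26% lower. They were RRN3, TAF1D, NOP56, NOP58, LYAR, WDR43, RRP12, NOP2, NOP16 and WDR74. None of these 10 calls held under all 15 alternatives that give a test. The median was 0.24 over the 49 genes and -0.01 over all tested genes, and 41 of the 49 values were positive. In 35 of the 49 genes (71.4%) both combination libraries lay above both vorinostat libraries and in 6 below, against 36.2% and 36.7% of all tested genes. TAF1D alone rose by more than 1 on the log2 scale, against 3.37% of all tested genes higher and 0.876% lower. The count of 10 was 0 without either vorinostat library, 1 without either combination library, 2 without either vehicle library and 24 without either EC359 library, and it was 5 with total-count or median-ratio scaling.

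The comparison of EC359 with vehicle and that of the combination with vorinostat have no library in common, so their fold changes came from separate libraries. The tests shared 1 estimate of the spread per gene from all 8 libraries, so the calls of the 2 comparisons were not independent. WDR43, RRP12, NOP2 and NOP16 rose in both, which is 66.7% of the first list and 40.0% of the second. Of all tested genes that rose with EC359 alone 57.7% rose in both, and of those that rose on adding EC359 to vorinostat 26.0%. With the replicate number as a block RRP12 was the only member of the 49 that rose in both, and without either vehicle library none of the 4 passed with EC359 alone. DDX21 rose with EC359 alone and gave 0.44 ± 0.12 on adding EC359 to vorinostat (adjusted p = 0.030), and RRP1B gave 0.03 ± 0.09 (adjusted p = 0.84). Over the 49 genes 38 were positive in both and 2 negative in both, and 33.1% of all tested genes were positive in both. Across the 49 genes the log2 fold changes had a Pearson r of 0.55 and a Spearman rho of 0.49, and across all 13694 tested genes these were 0.29 and 0.46. Genes are not independent replicates, and no p is given.

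**Figure D3:**
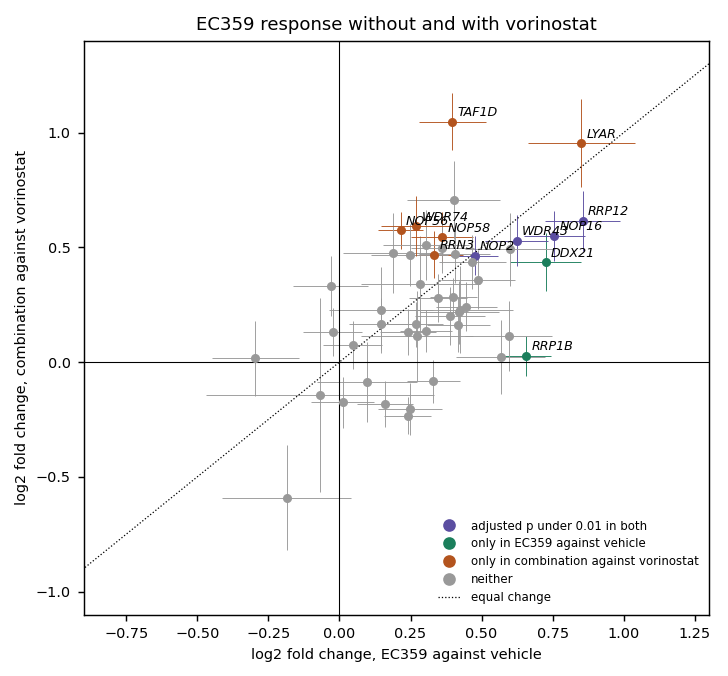
Log2 fold change of the 49 genes for EC359 against vehicle (x axis) and for the combination against vorinostat (y axis), with standard errors and 2 libraries a group. Named genes had an adjusted p under 0.01 in at least 1 of the comparisons. TAF1D (0.40 and 1.05) lies far above the line of equal change, and RRP1B (0.66 and 0.03) far below it.

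The difference between these responses, the interaction, passed the test in 0 of the 49 genes, against 1.62% of all tested genes higher and 0.482% lower in edgeR's quasi-likelihood test (with the fold limit, 1.23% and 0.336%). At an unadjusted p under 0.05 there were 8, for which no count over all tested genes was made. DESeq2 called 0 of the 49 genes higher and 2 lower, beside 447 higher and 267 lower over all tested genes. Those closest to the threshold were RRP1B (-0.63, adjusted p = 0.020) and NOC2L (-0.47, adjusted p = 0.045). The log2 fold change with EC359 was 0.66 without and 0.03 with vorinostat for RRP1B, and 0.24 and -0.23 for NOC2L. Under DESeq2 their adjusted p-values were 0.00045 and 0.0065. Over all alternatives with a test the adjusted p ranged from 0.00038 to 0.11 for RRP1B and from 0.0026 to 0.20 for NOC2L.

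When vorinostat was added to EC359, 23 of the 49 genes fell (46.9%) and 3 rose (6.12%), against 26.3% of all tested genes lower and 29.5% higher. The 3 that rose were RRP9, NOC2L and GNL2. The median was -0.43 over the 49 genes and 0.06 over all tested genes. UBTF, UTP20 and NOP14 fell most. By more than 1 on the log2 scale 6 fell and 0 rose, against 13.9% and 19.8% of all tested genes, and the libraries lay apart downwards in 28 genes and upwards in 8, against 37.4% and 42.3%. Both counts of called members changed on leaving out single libraries, as did those of all tested genes, and 16 of the 26 calls held under all 15 alternatives. On leaving out single libraries the median over the 49 genes ranged from -0.50 to -0.31. POLR1C, FBL, NOLC1, GNL3, NOC4L, NOL6, BYSL, BOP1, RRS1, PPAN and EBNA1BP2 passed in none of the 5 comparisons. How many of all tested genes passed in none was not counted.

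Beyond the 49, a list of 100 other ribosome biogenesis genes was tested in the same fit. Among them 7 rose and 0 fell with EC359, with vorinostat 5 rose and 35 fell, with the combination 21 rose and 22 fell, and on adding EC359 to vorinostat 17 rose and 0 fell. Over all tested genes the shares higher and lower were 3.81% and 4.01%, 26.2% and 25.9%, 29.7% and 26.7%, and 8.45% and 5.26% in these 4 comparisons. The median log2 fold changes of the 100 genes were 0.24, -0.23, 0.04 and 0.30 in the same order. With EC359 RRP1, a paralog of RRP1B, rose from 73.5 and 76.7 to 197 and 231 CPM (1.51 ± 0.11, adjusted p = 2.8e-05) and CD3EAP, a subunit of RNA polymerase I now named POLR1G, rose from 81.4 and 77.1 to 191 and 125 CPM (1.00 ± 0.18, adjusted p = 0.0058). The smallest of the 7 rises were those of UTP15 (0.51 ± 0.10, adjusted p = 0.0071) and BRIX1 (0.52 ± 0.10, adjusted p = 0.0089), of the small and the large subunit pathway.

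With vorinostat the lowest of these other genes were DDX54, an RNA helicase, which fell from 132 and 119 to 31.2 and 34.4 CPM (-1.93 ± 0.15, adjusted p = 5.4e-06), and GNL3L, a GTPase related to GNL3 (-1.44 ± 0.15, adjusted p = 3.4e-05). The highest were IMP3 of the U3 snoRNP (1.02 ± 0.19, adjusted p = 0.0013) and SHQ1, an assembly factor of box H/ACA particles (0.87 ± 0.12, adjusted p = 0.00015). With the combination DDX54 (-2.27 ± 0.15, adjusted p = 1.7e-06) and NOL12 (-1.54 ± 0.19, adjusted p = 8.5e-05) fell most, and NUFIP1, an assembly factor of box C/D particles (1.58 ± 0.12, adjusted p = 3.4e-06), and TAF1A, a subunit of SL1 (1.496 ± 0.19, adjusted p = 0.00010), rose most.

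The genes of the ribosomal proteins themselves, which the pathway above assembles, were tested too. Of 78, 0 rose and 0 fell with EC359, 0 rose and 5 fell with vorinostat, 0 rose and 4 fell with the combination, and 0 rose and 0 fell on adding EC359 to vorinostat. Over all tested genes the shares higher and lower were 3.81% and 4.01%, 26.2% and 25.9%, 29.7% and 26.7%, and 8.45% and 5.26%. The medians of the 78 genes in these comparisons were -0.09, 0.05, -0.14 and -0.16, and those of all tested genes -0.02, 0.03, 0.07 and -0.01. Many of these genes have processed pseudogenes, and reads that align to several copies were not counted. No test of the difference between this list and the 49 genes was made.

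**Figure D4:**
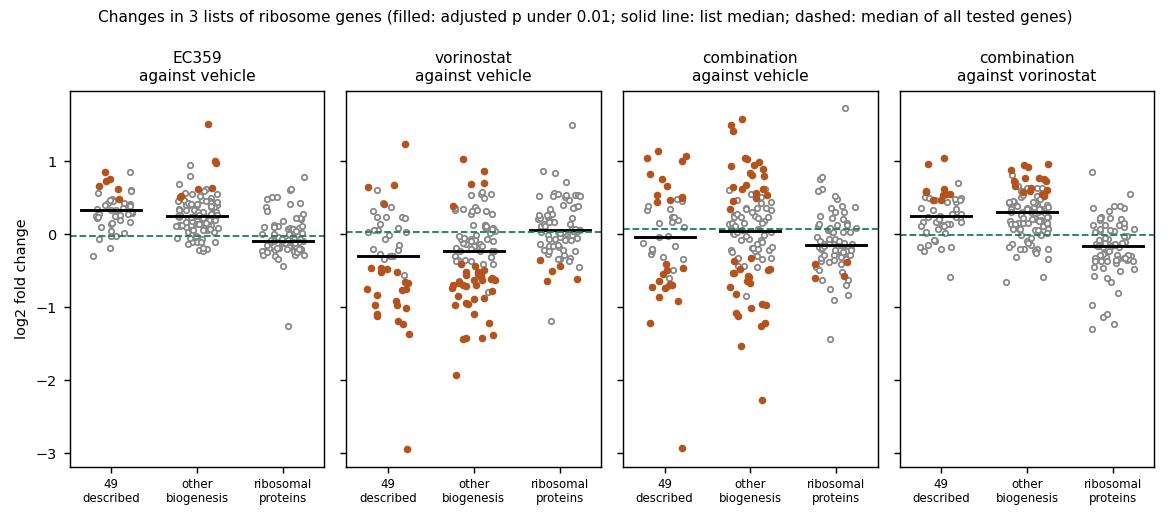
Log2 fold change (y axis) of the 49 genes, the 100 other ribosome biogenesis genes and the 78 ribosomal protein genes (x axis, points spread sideways at random) in 4 comparisons. Filled points had an adjusted p under 0.01, solid lines are list medians and the dashed line is the median of all 13694 tested genes. The medians of both biogenesis lists are above the dashed line with EC359 and below it with vorinostat.

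MYC was at 207 and 184 CPM with vehicle, 420 and 338 with EC359, 338 and 322 with vorinostat and 731 and 804 with the combination. It rose with EC359 (0.95, adjusted p = 0.00078), vorinostat (0.76, adjusted p = 0.00044) and the combination (1.97, adjusted p = 1.2e-06), and on adding EC359 to vorinostat (1.22, adjusted p = 0.00017). With vorinostat MYC was thus higher while 21 of the 49 genes were lower. Split by the promoter motif, 0 of 15 genes with CACGTG rose with vorinostat and 4 fell (median -0.14), and 3 of 28 without it rose and 17 fell (median -0.54), against 26.2% of all tested genes higher and 25.9% lower. With EC359 2 of 15 and 2 of 28 rose, with medians of 0.35 and 0.30, against 3.81% of all tested genes. With the combination 4 of 15 rose and 3 fell (median 0.19), and 6 of 28 rose and 10 fell (median -0.29), against 29.7% and 26.7% of all tested genes. On adding EC359 to vorinostat 2 of 15 and 6 of 28 rose and 0 fell, with medians of 0.16 and 0.31, against 8.45% and 5.26%. No test was made of these splits, and the part of MYC in any of the changes was not tested.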

How the data were processed

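RNA of BT-549 cells was sequenced with 50 bp single-end reads in 8 libraries, 2 in each of 4 groups. Per the labels and the study's methods, the authors aligned reads to hg19 with TopHat2 2.0.8b and deposited whole-number counts per RefSeq gene from HTSeq; the HTSeq version and strand setting are not given in the sources used here. The 5 summary lines of each table were left out of library sizes. Groups and replicate numbers came from the sample titles, and the labels name no batch.

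Counts were fitted in edgeR 4.0.16 (R 4.3.3): filterByExpr by group, TMM scaling, and a quasi-likelihood fit of the 4 group means over all 8 libraries (4 residual degrees of freedom), with contrasts for 5 comparisons of 2 groups and the interaction. Benjamini-Hochberg adjustment covered all 13694 tested genes and the limit was an adjusted p of 0.01. The study's limit of 1 on the log2 fold change is given beside it. Normalized CPM used the TMM library sizes. The steps were run on simulated counts with known changes, in which a gene had the same spread in all groups. The wider spread of the EC359 libraries was not simulated. Positions and lengths came from GENCODE on GRCh37, which has the coordinates of hg19, and promoters from RefSeq on GRCh38.p14. The depth was 19069450 to 24759041 counts, and the median member had 1736 counts in a median library, so that the spread between libraries, more than counting error, limits the precision.

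Per-library values are given for 8 reference members, for the 3 largest and 3 smallest log2 fold changes among members passing in each of the 5 comparisons (26 members in all), and folds for the 2 highest and 2 lowest other ribosome biogenesis genes against vehicle. The NOP58, GAR1, NHP2, NOLC1, PES1, BOP1 and WDR12 folds were added to complete their complexes. The members and lists were chosen with earlier results of these data known. Alternatives were DESeq2 1.42.0, other scaling, filters and thresholds, the replicate number as a block, leaving out each library, and offsets for GC content and length, the last chosen after seeing the data.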

Additional observations from a re-analysis of the deposited data

How the results depend on the processing

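With 2 libraries a group, the counts called depended on single libraries, for the members as for all tested genes. So did the member medians of the combination against vehicle, of the combination against EC359 and of the interaction. On leaving out each library in turn, the members higher and lower and the median log2 fold change ranged over 0 to 25, 0 to 1 and 0.31 to 0.40 for EC359 against vehicle, 1 to 9, 10 to 25 and -0.33 to -0.28 for vorinostat, 5 to 18, 7 to 18 and -0.16 to -0.049 for the combination, 0 to 24, 0 to 2 and 0.22 to 0.25 for the combination against vorinostat, 1 to 8, 17 to 28 and -0.50 to -0.31 for the combination against EC359, and 0 to 1, 0 to 9 and -0.18 to -0.047 for the interaction. A group left with 1 library was assumed to vary like the others. The cause of the changes below was not tested. Numbers in brackets are the counts over all genes tested in that setting. For EC359 against vehicle the count higher was 13 with DESeq2 (845), 11 with no filter (694), 17 at an adjusted p under 0.05 (1105) and 0 with the fold limit (266). For vorinostat it was 7 (4568) and 1 (2295) under these thresholds, the count lower was 7 (1828) with the fold limit, and the median was -0.27 with a stricter filter. For the combination 3 (2666) and 2 (2097) passed with the fold limit, and the median was -0.12 with total counts, -0.081 with no filter, -0.0061 with a stricter filter and -0.075 with GC and length offsets. For the combination against vorinostat the count higher was 5 with median-ratio (RLE) scaling (1009) or total counts (929), 19 at 0.05 (2150) and 1 with the fold limit (462). The median was 0.21 with RLE or DESeq2, 0.15 with total counts and 0.20 with no filter. For the combination against EC359, 5 were higher at 0.05 (4884), and 0 (2712) and 6 (1908) passed with the fold limit. The median was -0.50 with total counts, -0.49 with no filter, -0.40 with a stricter filter and -0.46 with offsets. For the interaction the count lower was 1 with total counts (86), no filter (149) or offsets (127) and 2 with DESeq2 (267) or at 0.05 (283). The median was -0.15 with RLE or DESeq2, -0.18 with total counts, -0.17 with no filter and -0.13 with offsets.

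Whether the replicate numbers pair the libraries was not tested. The correlation of same-numbered deviations ran from -0.17 (EC359 and combination) to 0.23 (vehicle and EC359). With the replicate number as a block, 4 members were higher with EC359, 5 higher and 20 lower with vorinostat, 12 and 11 with the combination, 6 and 0 for the combination against vorinostat, 3 and 21 against EC359, and 0 for the interaction. Over all tested genes the block gave 437 higher and 426 lower, 3399 and 3401, 3914 and 3552, 972 and 584, 3878 and 3477, and 151 and 38. With the combination numbers crossed, a pairing added after seeing the data, the members called were 13 and 1 against vorinostat and 4 and 24 against EC359. Over all tested genes these were 1486 and 1110, and 4257 and 3847.

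Sign changes are listed only where the value passed as reported or in the alternative, or exceeded its own standard error as reported. Of single members, there were 17 such cases, and none had passed as reported. Smaller values that changed sign were not counted. With offsets these were BOP1 with vorinostat (-0.095) and, for the combination against vorinostat, FBL (0.026), UTP20 (-0.050), HEATR1 (-0.052) and WDR12 (-0.034). On leaving out single libraries the ranges crossed 0 for POLR1C (-0.11 to 0.61), RRP9 (-0.15 to 0.48) and BYSL (-0.13 to 0.60) with EC359, for FBL (-0.31 to 0.019), PPAN (-1.18 to 0.13), NOC3L (-0.030 to 0.27), NOP58 (-0.28 to 0.015) and RRP12 (-0.0080 to 0.37) in the combination against EC359, for RRS1 (-0.054 to 0.15) with the combination, for UTP20 (-0.036 to 0.26) in the combination against vorinostat, and for NOLC1 (-0.44 to 0.060) and RRP9 (-0.0042 to 0.63) in the interaction.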
